A study of Mus musculus with 3 samples.

Results

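The genes described here are 10 members of the bone morphogenetic protein (BMP) pathway, measured in frozen and thawed fetal ovarian somatic cells (FOSCs) of the mouse. They comprise the ligands Bmp2, Bmp4 and Bmp7, the receptors Bmpr1a and Bmpr2, and the response genes Id1, Id2, Id3, Smad6 and Smad7. They were chosen by name, as 10 of the 18738 genes that the count tables list, and not by a rule on their values, though earlier results of these data were known. The material was 3 cryopreserved lots (26, 29 and 30) of 1 group, FOSC, profiled by 10X Genomics 3′ single-cell RNA sequencing after thaw. Each lot pooled the ovaries of embryos at E12.5 from 10 pregnant CD1 females, with the mesonephros cut away. SSEA1 (a germ cell surface antigen) and CD31 (an endothelial antigen) were used to deplete cells by magnetic sorting, so the germ and endothelial cells described below are those that escaped the column. No lot was treated, and the comparisons are between cell types, with the 3 lots as replicates (n = 3 lots throughout).

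BMPs are secreted dimeric ligands of the transforming growth factor-β family. They bind a complex of type I receptors such as BMPR1A and type II receptors such as BMPR2, which phosphorylates SMAD1, SMAD5 and SMAD9. These enter the nucleus with SMAD4 and switch on targets, among which the Id genes are the best known. SMAD6 and SMAD7 are inhibitory SMADs that are induced by the same signal and feed back on it. In the fetal ovary, BMP2 is a ligand of the pre-granulosa cells, the supporting cells of the later follicle, and BMP signalling takes part in the oogenic and meiotic programme of germ cells, for which the nuclear factor ZGLP1 is a downstream regulator.

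The filters left 28971 cells of 29103 barcodes, with 87474664 to 141398825 UMIs (unique molecular identifiers, counted molecules) in the kept cells of a lot and a median of 8949 to 11595 UMIs per kept cell. Between 19 and 30 cell barcodes were shared by each pair of lots, and 0 by all lots. The cells fell into 22 clusters, named from marker genes that include none of the 10 genes. They gave 12028 pre-granulosa-like cells, 6272 stromal-like cells, 6072 epithelial-like cells and 1470 germ-like cells, together the large classes, and 390 Sertoli-like, 349 endothelial-like, 136 macrophage-like, 78 red-blood-cell-like, 77 mesonephric-like and 42 chromaffin-like cells. The other 2057 cells kept no name. The names are rebuilt from the counts and are not the authors' annotation. Germ-like cells held their 8 fixed markers at 2543 ± 143 CPM in sum (counts per 1000000 UMIs of that class and lot; mean ± SD, n = 3 lots), against 16.6 to 25.4 CPM in the other large classes. They also carried 318 CPM of the pre-granulosa marker list, against 3822 CPM in pre-granulosa-like cells, and red blood cell markers that ranged from 63.5 to 1797 CPM between lots. Sertoli-like cells, which are testicular, came from all lots (16 to 285 cells per lot). Y-linked UMIs were not confined to them, and were highest in lot 29 in each large class. There they stood at 29.9 CPM in stromal-like, 13.3 CPM in epithelial-like, 4.09 CPM in germ-like and 1.27 CPM in pre-granulosa-like cells, against 131.9 CPM in Sertoli-like cells.

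In the mouse genome (GRCm38, GENCODE coordinates) the ligand genes lie at chr2:133552159-133562885 on the plus strand (Bmp2), chr14:46383520-46390669 on the minus strand (Bmp4) and chr2:172868012-172940321 on the minus strand (Bmp7). The receptor genes lie at chr14:34410734-34503341 on the minus strand (Bmpr1a) and chr1:59763400-59879014 on the plus strand (Bmpr2). The response genes lie at chr2:152736251-152737410 (Id1), chr4:136143497-136145755 (Id3) and chr18:75367529-75395935 (Smad7) on the plus strand, and at chr12:25093799-25097140 (Id2) and chr9:63953076-64022059 (Smad6) on the minus strand. An exon of Bmp4 overlaps the gene Gm15217, and an exon of Bmpr1a the gene Gm17110, each on the other strand. The strand setting of the counting is not given in the sources used here, so reads of these 2 genes and of their antisense partners may not have been told apart.

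Bmp2 was the ligand with the clearest cell type pattern. Its level was highest in pre-granulosa-like cells, at 154, 168 and 189 CPM in lots 26, 29 and 30. Epithelial-like cells had 82.7, 79.6 and 109 CPM, stromal-like cells 29.7, 25.2 and 37.8 CPM, and germ-like cells 16.1, 9.94 and 21.0 CPM. The lots of these 4 classes did not overlap in their Bmp2 levels, and the order from pre-granulosa-like to germ-like held in each lot. With called doublets removed, the mean fell from 30.9 to 20.1 CPM in stromal-like cells and from 15.7 to 8.95 CPM in germ-like cells. Bmp2 was 1.93-fold higher in pre-granulosa-like than in epithelial-like cells (log2 fold change 0.95 ± 0.25 SE, adjusted p = 0.0025) and 5.94-fold higher than in stromal-like cells (2.57 ± 0.26, adjusted p = 2.2e-09). These and all adjusted p-values below are from edgeR's quasi-likelihood test on UMIs summed per class and lot, with Benjamini-Hochberg adjustment over the 13286 genes tested. In stromal-like cells Bmp2 was 3.08-fold lower than in epithelial-like cells (-1.62 ± 0.26, adjusted p = 8.9e-06). All 6 pairs of the large classes thus differed in Bmp2, with the exception that the germ-like to stromal-like difference (log2 -0.94 ± 0.27, adjusted p = 0.0031) was not called with a coarser clustering (-0.31, adjusted p = 0.34). Among the small classes, endothelial-like cells had a mean of 56.2 CPM with a wide spread (28.3, 45.2 and 95.03 CPM), and Sertoli-like cells had 14.5, 15.1 and 14.8 CPM.

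The share of cells with a Bmp2 UMI was compared after each cell had been thinned to 4000 UMIs, since germ-like cells were the deepest (a median of 18134 to 23767 UMIs per lot, against 8322 to 11220 in pre-granulosa-like cells). It was 39.2% ± 3.2 (SD, n = 3 lots) in pre-granulosa-like cells, 24.1% ± 3.0 in epithelial-like cells, 7.09% ± 1.41 in stromal-like cells and 5.06% ± 1.86 in germ-like cells. Without thinning the corresponding shares were 60.7%, 49.7%, 16.0% and 21.2%. Red-blood-cell-like cells, which should not make BMP2, had a Bmp2 UMI in 7.82% ± 9.36 of their thinned cells (5.26%, 0% and 18.2% in lots 26, 29 and 30), where the 0 of 34 cells in lot 29 allows a share of up to 10.3% (exact 95% binomial limit, for counting error only), at a median of 7490.5 to 12097 UMIs before thinning. The stromal-like and germ-like shares were below that mean, but the mean rests on 4 of 22 cells in lot 30. Without lot 30, an omission chosen after seeing the data, it was 2.63%, and the stromal-like (6.29%) and germ-like shares (4.31%) lay above it. Whether the Bmp2 UMIs of these classes came from free RNA was not tested. The pre-granulosa-like and epithelial-like shares were above the red-blood-cell-like mean with and without lot 30. Red blood cell markers made up 359700 to 725900 CPM of the red-blood-cell-like class, so its 4000 UMIs per cell held fewer of other genes. No allowance was made for this in the shares.

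Clusters within a class differed in Bmp2, which is given as a description, since the classes were cut from the same cells. The pre-granulosa-like cells formed 3 clusters. In cluster 0, led by Ly6d and Gng13, Bmp2 stood at 194, 212 and 243 CPM, and in cluster 1, led by Rhox8 and Fst among others, at a mean of 94.9 CPM. Cluster 3, which took 95.1% of its 2460 cells from lot 30 and had Hspa1a and Hspa1b (heat shock chaperones) among its leading genes, had 130 CPM. Among epithelial-like clusters, Bmp2 was 83.0 to 114 CPM in clusters 4, 6 and 8, and 28.9 CPM in cluster 10, led by S100a6, Krt19 and Hand2 among others. Among stromal-like clusters it was 8.13 CPM in cluster 9, led by Lum and Dcn, and 73.8 CPM in cluster 12, led by Foxd1 and Dkk2. The stromal-like mean therefore averages clusters that lay on either side of the mean in red-blood-cell-like cells (30.8 CPM). That mean had a wide spread (16.2, 5.31 and 71.0 CPM in lots 26, 29 and 30, from 3, 2 and 21 UMIs).

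Bmp7 followed Bmp2 in the order of the large somatic classes. It stood at 23.5, 23.4 and 23.9 CPM in pre-granulosa-like cells, at 17.3, 17.3 and 19.5 CPM in epithelial-like cells and at 10.3, 10.6 and 9.69 CPM in stromal-like cells. These 3 classes did not overlap. The difference between pre-granulosa-like and stromal-like cells was 2.49-fold (log2 1.32 ± 0.16, adjusted p = 7.0e-08). That between pre-granulosa-like and epithelial-like cells was smaller (1.33-fold, log2 0.42 ± 0.15, adjusted p = 0.030). It was no longer called without lot 26 (adjusted p = 0.086) or without lot 30 (adjusted p = 0.097). Germ-like cells (11.3, 7.31 and 11.4 CPM) overlapped with stromal-like cells, and the difference was 0.02 ± 0.18 on the log2 scale (adjusted p = 0.92).

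No difference of Bmp4 between the large somatic classes passed the test. It was measured at 14.4, 13.6 and 17.2 CPM in pre-granulosa-like cells, at 23.0, 19.0 and 14.9 CPM in epithelial-like cells and at 17.1, 22.2 and 17.0 CPM in stromal-like cells, and these ranges overlapped. The 3 somatic differences were -0.30 ± 0.24, -0.21 ± 0.24 and -0.09 ± 0.24 on the log2 scale, with adjusted p-values of 0.33, 0.51 and 0.82. With a coarser clustering (resolution 0.4), Bmp4 was lower in pre-granulosa-like than in stromal-like cells (log2 -0.73, adjusted p = 0.0096). Germ-like cells had 7.90, 11.98 and 11.2 CPM. They were lower than epithelial-like cells (log2 -0.95 ± 0.26, adjusted p = 0.0023), stromal-like cells (-0.86 ± 0.27, adjusted p = 0.0052) and pre-granulosa-like cells (-0.66 ± 0.26, adjusted p = 0.027). The first of these was not called without lot 26 (adjusted p = 0.085), and the last was not called without lot 26 (adjusted p = 0.11) or lot 30 (adjusted p = 0.17), nor without the pre-granulosa-like cluster that came mostly from lot 30 (adjusted p = 0.28). With DESeq2, the difference from stromal-like cells (log2 -0.77, adjusted p = 0.051) and that from pre-granulosa-like cells (-0.51, adjusted p = 0.2) were not called.

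The even Bmp4 level of the classes hid a wide range between their clusters. Bmp4 was 4.88, 4.42 and 5.16 CPM in the Bmp2-rich pre-granulosa-like cluster 0, against means of 31.4 CPM in cluster 1 and 36.8 CPM in cluster 3. The lots of cluster 3 had 35.1, 49.7 and 25.6 CPM, from 16, 33 and 689 UMIs. In the epithelial-like cells it was 41.99 CPM in cluster 10 and 11.9 to 20.3 CPM in the other clusters. In the stromal-like cells it was 43.9 CPM in cluster 9, 33.4 CPM in cluster 12, 17.8 CPM in cluster 5 and 4.01 CPM in cluster 2, which Sparcl1 led among others. In each of the 3 somatic classes, the cluster with the most Bmp2 was thus not the one with the most Bmp4.

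**Figure D1:**
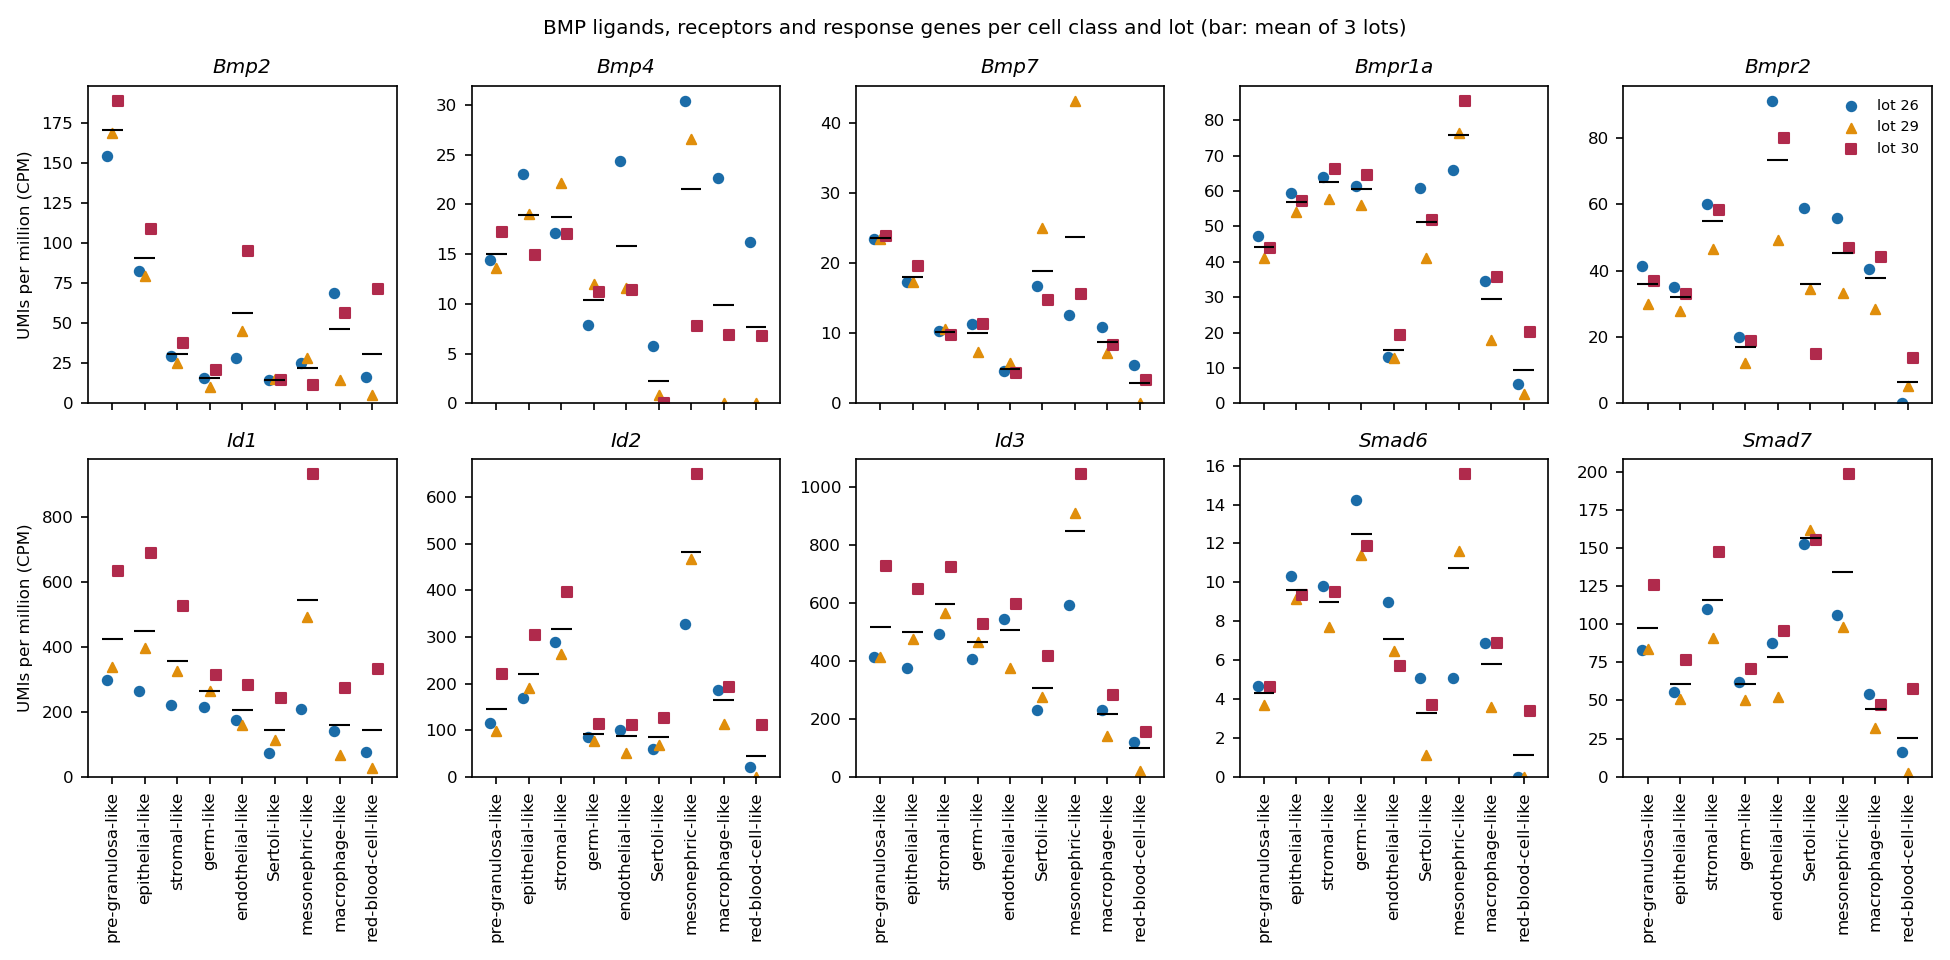
Levels in CPM (linear axis from 0) of the 10 genes in 9 cell classes, with 1 point per lot (circle, lot 26; triangle, lot 29; square, lot 30) and a bar at the mean of 3 lots. Bmp2 falls from 170.5 CPM in pre-granulosa-like to 15.7 CPM in germ-like cells, while Id3 stays between 467 and 596 CPM in the 4 large classes.

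The type I receptor gene Bmpr1a varied little. Its mean was 62.7 ± 4.3 CPM in stromal-like cells, 60.6 ± 4.3 CPM in germ-like cells, 56.8 ± 2.7 CPM in epithelial-like cells and 44.1 ± 3.2 CPM in pre-granulosa-like cells. The first 3 of these overlapped, and their differences did not pass (adjusted p = 0.71 to 0.91). Pre-granulosa-like cells were lower than stromal-like cells (log2 -0.40 ± 0.11, adjusted p = 0.0032) and epithelial-like cells (-0.34 ± 0.11, adjusted p = 0.014), and germ-like cells were higher than pre-granulosa-like cells (0.39 ± 0.11, adjusted p = 0.0030). The epithelial difference was lost without lot 26 (adjusted p = 0.13) or lot 30 (adjusted p = 0.19), with no low-count filter (0.08), with a finer clustering (0.058) and with the BMP genes put back in the clustering (0.057), and the stromal one without lot 30 (adjusted p = 0.11). Endothelial-like cells stood apart with 13, 12.9 and 19.3 CPM, below every lot of the large classes.

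Bmpr2, which encodes the type II receptor, had another order. It was 59.98, 46.6 and 58.1 CPM in stromal-like cells, 41.5, 29.8 and 36.9 CPM in the pre-granulosa-like class, 35.2, 27.8 and 33.0 CPM in epithelial-like cells and 19.9, 12.1 and 18.7 CPM in germ-like cells. Stromal-like and germ-like cells lay outside the range of the others, while pre-granulosa-like and epithelial-like cells overlapped. Bmpr2 was 1.63-fold higher in stromal-like than in epithelial-like cells (log2 0.70 ± 0.17, adjusted p = 0.0018) and 1.41-fold higher than in pre-granulosa-like cells (adjusted p = 0.015, and 0.16 without lot 30). Germ-like cells were lower than stromal-like (log2 -1.65 ± 0.18, adjusted p = 5.8e-09), pre-granulosa-like (-1.15 ± 0.18, adjusted p = 2.5e-06) and epithelial-like cells (-0.94 ± 0.18, adjusted p = 4.9e-05). The pre-granulosa to epithelial difference was 0.20 ± 0.17 (adjusted p = 0.35) and was called only with the lot as a block (adjusted p = 0.043).

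Id1, Id2 and Id3 encode helix-loop-helix proteins without a DNA-binding domain that hold back differentiation factors. Id1 was present in every large class and its lots overlapped between all of them. Pre-granulosa-like cells had 298, 337 and 634 CPM, epithelial-like cells 265, 397 and 688 CPM, stromal-like cells 221, 325 and 526 CPM, and germ-like cells 214, 263 and 313 CPM. The values of lot 30 were the highest in each class. The 6 differences between large classes did not pass the test (adjusted p = 0.1 to 0.93), with standard errors of 0.44 on the log2 scale that come from the spread between lots. With the lot as a block, which the shared pool of cells in a lot allows, 4 of the 6 passed. Id1 was then lower in germ-like than in pre-granulosa-like (log2 -0.67, adjusted p = 2e-04) and epithelial-like cells (-0.71, adjusted p = 0.00012), lower in stromal-like than in epithelial-like cells (-0.39, adjusted p = 0.031) and higher in pre-granulosa-like than in stromal-like cells (0.36, adjusted p = 0.039). With only the compared classes in the fit, the first 2 of these also passed (adjusted p = 0.016 and 0.025).

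Id3 was the most even of the Id genes over the large classes. It stood at 495, 568 and 726 CPM in stromal-like cells, 413, 415 and 728 CPM in the pre-granulosa-like class, 376, 477 and 650 CPM in epithelial-like cells and 408, 465 and 527 CPM in germ-like cells. All ranges overlapped, and none of the 6 differences passed the edgeR test, the largest being -0.32 ± 0.27 on the log2 scale between germ-like and stromal-like cells (adjusted p = 0.28). That difference was called with the lot as a block (log2 -0.30, adjusted p = 0.041). Thinned to 4000 UMIs, 79.0% ± 3.4 of germ-like cells had an Id3 UMI, against 69.9% ± 9.5 of pre-granulosa-like, 70.0% ± 10.6 of epithelial-like and 74.9% ± 6.7 of stromal-like cells. In red-blood-cell-like cells the share was 19.1% ± 18.3.

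Id2 differed between the classes. Stromal-like cells had 289, 263 and 397 CPM, epithelial-like cells 168, 190 and 304 CPM, pre-granulosa-like cells 115, 98.6 and 220 CPM and germ-like cells 85.0, 77.2 and 114 CPM. In each lot the order was stromal-like, epithelial-like, pre-granulosa-like and germ-like, although neighbours overlapped across lots. Id2 was 2.03-fold lower in pre-granulosa-like than in stromal-like cells (log2 -1.02 ± 0.31, adjusted p = 0.0079), but not without lot 26 (adjusted p = 0.099). It was 3.37-fold lower in germ-like than in stromal-like cells (-1.75 ± 0.32, adjusted p = 2.1e-05) and 2.48-fold lower than in epithelial-like cells (-1.31 ± 0.32, adjusted p = 0.00063). The difference between germ-like and pre-granulosa-like cells was smaller (-0.73 ± 0.32, adjusted p = 0.038), and was lost without lot 26 (adjusted p = 0.11) or lot 30 (adjusted p = 0.16) and with DESeq2 (adjusted p = 0.15). The 2 remaining pairs were called only with the lot as a block: pre-granulosa-like below epithelial-like (-0.61, adjusted p = 0.00021, against 0.14 without the block) and stromal-like above epithelial-like (0.46, adjusted p = 0.0046, against 0.31).

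Smad6 was lowest in the pre-granulosa-like and highest in the germ-like cells among the large classes. It stood at 4.67, 3.67 and 4.63 CPM in the pre-granulosa-like class, 10.3, 9.16 and 9.36 CPM in epithelial-like cells, 9.79, 7.69 and 9.50 CPM in stromal-like cells and 14.2, 11.4 and 11.9 CPM in germ-like cells. Every lot of the pre-granulosa-like cells lay below every lot of the other 3 classes, and every lot of the germ-like cells above. The UMIs behind a value numbered 78 to 390. Smad6 was 2.16-fold lower in pre-granulosa-like than in epithelial-like cells (log2 -1.11 ± 0.16, adjusted p = 2.1e-06) and 1.93-fold lower than in stromal-like cells (-0.95 ± 0.17, adjusted p = 2.1e-05). In germ-like cells it was 2.75-fold higher than in pre-granulosa-like cells (1.46 ± 0.17, adjusted p = 1.3e-08) and 1.43-fold higher than in stromal-like cells (0.51 ± 0.17, adjusted p = 0.0083). Against epithelial-like cells the difference of 0.34 ± 0.17 did not pass (adjusted p = 0.067). It passed in 10 of the alternatives run for this comparison, among them the lot as a block (adjusted p = 0.0070), doublets removed (adjusted p = 0.011) and DESeq2 (adjusted p = 0.0040). It missed the threshold without any 1 lot (adjusted p = 0.07 to 0.13).

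Smad7 had yet another order. It was highest in the Sertoli-like cells (152, 162 and 155 CPM), followed among the large classes by stromal-like cells (110, 90.8 and 148 CPM) and pre-granulosa-like cells (83.2, 83.8 and 126 CPM). Epithelial-like cells had 55.8, 50.7 and 76.5 CPM and germ-like cells 61.9, 50.4 and 70.5 CPM. The lots of stromal-like and pre-granulosa-like cells overlapped, as did those of epithelial-like and germ-like cells, while every lot of the first pair lay above every lot of the second. Smad7 was 1.64-fold higher in pre-granulosa-like (log2 0.71 ± 0.21, adjusted p = 0.0060) and 1.80-fold higher in stromal-like than in epithelial-like cells (0.85 ± 0.21, adjusted p = 0.0020). Germ-like cells were lower than pre-granulosa-like (-0.76 ± 0.21, adjusted p = 0.0019) and stromal-like cells (-0.90 ± 0.21, adjusted p = 4e-04). The 2 inhibitory Smad genes thus differed in opposite directions between pre-granulosa-like and epithelial-like cells.

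The sequence before the start that RefSeq gives (GRCm38.p6) was read for the response genes Id2 and Smad6, which differed between classes and have bases there outside every annotated exon. For Id2 that start is not the 5′ end of the gene as GENCODE places it: a longer transcript begins further upstream, and the stretch shown lies in an intron of it, just before its second exon. Of the 10 genes, 6 were searched (Bmp4, Bmpr1a, Bmpr2, Id2, Id3 and Smad6), and Smad7 was left out of the search by choice. Both strands were searched in the 250 bases before the start for GGCGCC, a GC-rich motif that BMP-activated SMADs bind, and for GTCTG, which holds the SMAD box GTCT. Capitals mark GGCGCC in the stretches below, which are written 5′ to 3′ on the minus strand at chr12:25096254-25096342 (Id2, the 89 intronic bases of the window) and chr9:64022060-64022309 (Smad6, 250 bases).
Id2: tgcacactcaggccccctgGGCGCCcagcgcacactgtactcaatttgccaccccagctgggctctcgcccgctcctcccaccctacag
Smad6: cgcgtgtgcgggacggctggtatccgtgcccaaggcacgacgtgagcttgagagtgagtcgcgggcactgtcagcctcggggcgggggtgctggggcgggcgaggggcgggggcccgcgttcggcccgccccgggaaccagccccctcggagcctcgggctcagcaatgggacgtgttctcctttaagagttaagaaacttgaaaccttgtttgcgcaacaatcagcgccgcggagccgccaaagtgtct
The window of Id2 held 1 GGCGCC, with its first base 231 bases before the RefSeq start, and no GTCTG. That of Id3 held GTCTG on either strand 2 times and no GGCGCC, and that of Smad6 held neither. The windows of Bmpr1a and Bmpr2 each held 1 GGCGCC, at 198 and 105 bases before the start, and no GTCTG. That of Bmp4 held neither motif. Of 32851 promoter windows of this length, 9.59% held GGCGCC and 42.2% held GTCTG, and the matches are a description only.

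Counted over the 10 genes, pre-granulosa-like against epithelial-like cells had 3 higher (Bmp2, Bmp7 and Smad7) and 2 lower (Bmpr1a and Smad6), where 22.5% of all tested genes were called higher and 21.5% lower. Against stromal-like cells 2 were higher (Bmp2 and Bmp7) and 4 lower (Bmpr1a, Bmpr2, Id2 and Smad6), with a background of 24.5% and 23.7%. Stromal-like against epithelial-like cells had 2 higher (Bmpr2 and Smad7) and 2 lower (Bmp2 and Bmp7), with 15.6% and 14.2%. The counts are to be read against these shares of all genes. Their median log2 fold change in the 3 comparisons was 0.0105, -0.17 and -0.013, against 0.0083, 0.0023 and -0.015 over all genes tested.

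**Figure D2:**
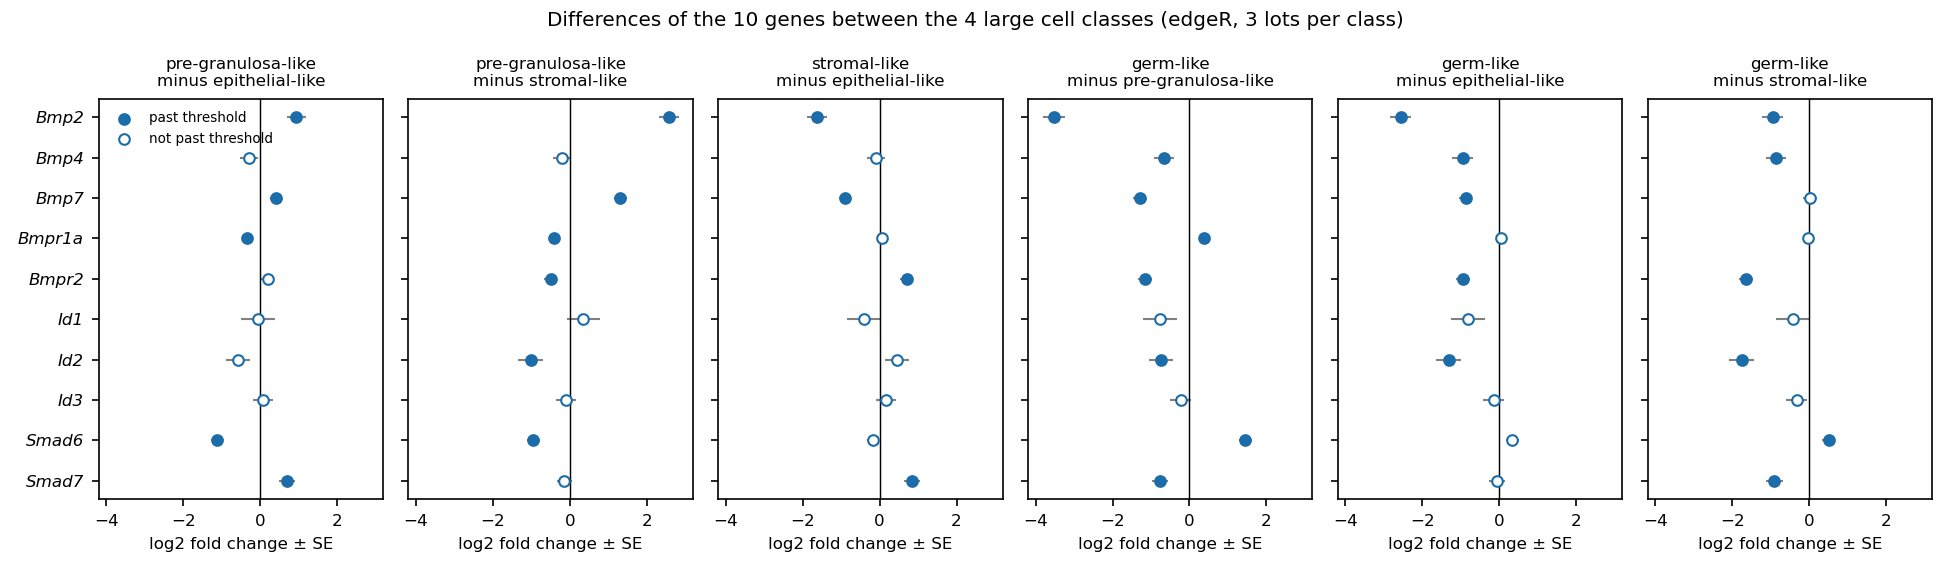
Log2 fold changes (points) with standard errors (lines) of the 10 genes in the 6 comparisons of the large classes, from edgeR on 3 lots per class; filled points passed the adjusted p threshold of 0.05. Bmp2 is filled in all 6 panels, from -3.51 to 2.57, and Id1 and Id3 in none.

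In germ-like cells the ligand genes were low and the response genes were split. Against pre-granulosa-like cells, 2 of the 10 genes were higher (Bmpr1a and Smad6) and 6 lower (Bmp2, Bmp4, Bmp7, Bmpr2, Id2 and Smad7), where 35.9% of all genes were higher and 38.1% lower. Against epithelial-like cells 0 were higher and 5 lower (Bmp2, Bmp4, Bmp7, Bmpr2 and Id2), with a background of 33.0% and 36.8%. Against stromal-like cells 1 was higher (Smad6) and 5 lower (Bmp2, Bmp4, Bmpr2, Id2 and Smad7), with 34.3% and 37.8%. The median of the 10 genes was -0.745, -0.848 and -0.635 on the log2 scale in these comparisons, against -0.025, -0.053 and -0.042 over all genes. Another scaling (DESeq2 size factors) moved the median log2 difference of all genes by 0.11 in the first and 0.13 in the second comparison, and the differences of Bmp4 and Id2 from pre-granulosa-like cells then did not pass (adjusted p = 0.079 and 0.074). Bmp2 was 11.4-fold lower in germ-like than in pre-granulosa-like cells (log2 -3.51 ± 0.28, adjusted p = 7.8e-12) and 5.92-fold lower than in epithelial-like cells (-2.57 ± 0.28, adjusted p = 3.4e-09).

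Part of the Bmp2 in germ-like cells lay in a set of cells with somatic transcripts. The germ-like cells, clustered alone with the BMP genes held out, gave 5 sub-clusters. One of them (sub-cluster 2, 275 cells) had 70.9% of its cells called doublets and 1592 CPM of pre-granulosa, epithelial and stromal markers in sum, against 241 to 259.5 CPM and at most 0.21% doublets in the others. Its Bmp2 level was 43.3, 43.6 and 52.6 CPM, above every lot of the other sub-clusters (2.66 to 22.3 CPM). Without it, germ-like cells had 7.35, 4.88 and 10.9 CPM of Bmp2, which was 4.48% ± 1.46 of the pre-granulosa-like level, and the pre-granulosa marker list stood at 4.20% ± 0.81 of its own pre-granulosa-like level. With all germ-like cells the percentages were 9.14% ± 2.83 and 8.28% ± 2.47. Fst, an abundant pre-granulosa transcript that is not on the list, stood at 5.04% ± 1.81 of its pre-granulosa-like level in all germ-like cells and at 1.31% ± 0.41 without the sub-cluster, below Bmp2 in both. The Bmp2 difference from pre-granulosa-like cells without these cells was -4.54 on the log2 scale (adjusted p = 6.2e-14), that from epithelial-like cells -3.56 (adjusted p = 1.1e-11) and that from stromal-like cells -1.95 (adjusted p = 8.5e-07). Smad6 without these cells was also higher than in epithelial-like cells (0.41, adjusted p = 0.032). Bmp2, Fst and the marker list thus all fell when the sub-cluster was left out, Fst to the lowest share, and how much of the Bmp2 was of germ cell origin was not tested. Id3 was 462 CPM and Smad6 12.8 CPM without the sub-cluster, close to the 467 and 12.51 CPM with it.

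The sub-clusters without somatic transcripts differed in their Id and Smad7 levels, given here as a description. Sub-cluster 0, led by Ccnb1 and Cdc20 (genes of mitosis), had Id3 at 292, 367 and 378 CPM. Sub-cluster 1, led by Rec8 and Stra8 (meiotic entry genes) and by the haemoglobin genes Hba-x and Hbb-y, had 503, 597 and 677 CPM, and sub-cluster 4, with Sycp3 (a component of the meiotic chromosome axis) at a mean of 1356 CPM, had 667, 645 and 644 CPM. Every lot of the last 2 lay above every lot of the first. Smad7 was 70.1, 56.2 and 61.8 CPM in sub-cluster 0, 56.1, 47.1 and 66.4 CPM in sub-cluster 1 and 33.5, 33.4 and 17.3 CPM in sub-cluster 4. Sub-clusters 0 and 1 overlapped in Smad7, and sub-cluster 4 lay below both. Its Smad7 values rest on 49, 14 and 7 UMIs from 76, 25 and 20 cells in lots 26, 29 and 30. Id1 was 189.7, 256 and 262.8 CPM in sub-cluster 0 and 266.7, 269.8 and 297.1 CPM in sub-cluster 4, which did not overlap, while sub-cluster 1 (224.6, 295.7 and 307.5 CPM) overlapped with both. Mean Id2 ranged from 69.7 to 99.2 CPM, with overlapping lots. Stra8 stood at 450 CPM in sub-cluster 0, 1184 CPM in sub-cluster 1 and 1745 CPM in sub-cluster 4, so Id3 and Stra8 were both higher in the latter 2. Sub-cluster 3, led by histone genes, did not share this pairing. Its Id3 (398, 502 and 537 CPM) lay above every lot of sub-cluster 0 and overlapped with sub-cluster 1. Its Stra8 mean was 485 CPM, and its Stra8 lots overlapped with those of sub-cluster 0. A Stra8 UMI was found in 84.4% or more of the cells of every sub-cluster, and germ-like cells without Stra8 could not be set apart for a test.

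**Figure D3:**
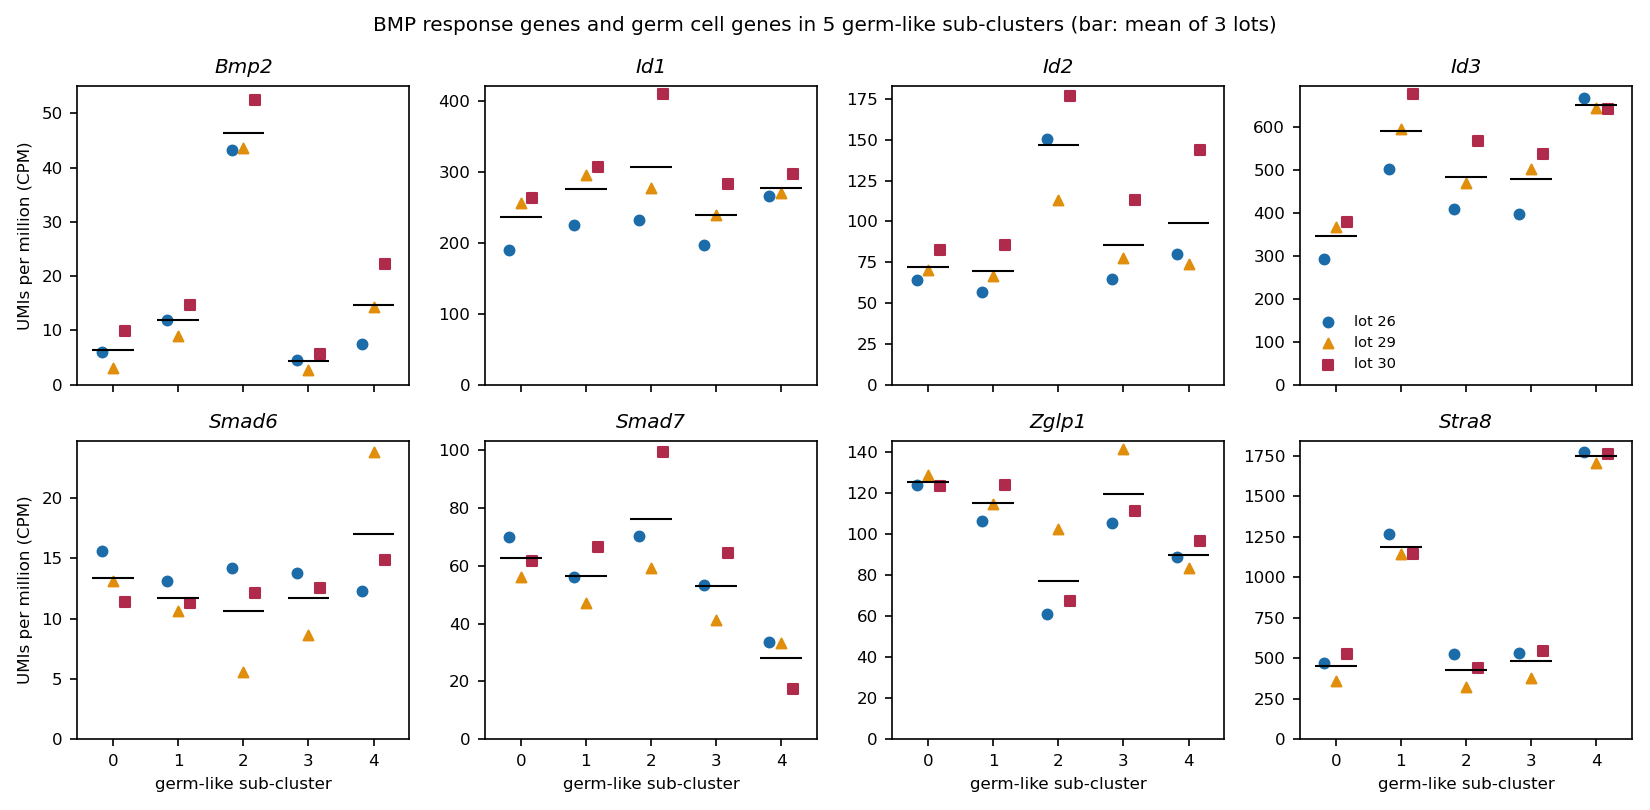
CPM (linear axis from 0) of 8 genes in the 5 germ-like sub-clusters, 1 point per lot with a bar at the mean of 3 lots. Bmp2 is concentrated in sub-cluster 2 (46.5 CPM), Id3 is 346 CPM in sub-cluster 0 and 652 CPM in sub-cluster 4, and Smad7 is lowest in sub-cluster 4 (28.1 CPM). The Smad7 values of sub-cluster 4 rest on 7 to 49 UMIs per lot.

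Other BMP pathway genes put these values in context, counted over lists that hold none of the 10 genes. Zglp1 was close to absent from the somatic classes (0.82 to 0.86 CPM in the 3 large ones) and stood at 99.5, 123 and 107 CPM in germ-like cells (log2 6.93 ± 0.28 against pre-granulosa-like cells, adjusted p = 3.2e-17). Among thinned germ-like cells 35.3% ± 3.1 had a Zglp1 UMI, against 0.29% to 0.35% in the somatic large classes. In germ-like against pre-granulosa-like cells, 35.9% of all genes were higher and 38.1% lower. Of the 9 listed BMP targets, Zglp1 included, 4 were higher and 3 lower there. The higher ones included Gata2, a haematopoietic and germ cell transcription factor gene, at 77.7 ± 4.3 CPM against 0.77 ± 0.34 CPM (log2 6.56 ± 0.32, adjusted p = 1.6e-16), and the homeobox gene Msx2 at 26.2 ± 1.9 CPM against 5.45 ± 0.89 CPM (2.19 ± 0.19, adjusted p = 5.8e-11). Its relative Msx1 stood at 57.9 ± 8.1 CPM in germ-like and 45.3 ± 6.6 CPM in pre-granulosa-like cells, a difference that did not pass (adjusted p = 0.19), and at 14.0 and 8.14 CPM in epithelial-like and stromal-like cells, where the germ-like excess passed (log2 2.00 ± 0.20 and 2.86 ± 0.21).

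The T-box genes Tbx2 and Tbx3, also on the target list, were highest in the stromal-like cells among the large classes. Tbx2 was 120.1, 109.8 and 114.5 CPM there, against means of 14.6 CPM in pre-granulosa-like and 22.4 CPM in epithelial-like cells (log2 -2.86 ± 0.15 for pre-granulosa-like minus stromal-like, adjusted p = 3.5e-15). Tbx3 was 28.3 CPM in stromal-like against 1.74 CPM in pre-granulosa-like cells (-3.90 ± 0.22, adjusted p = 9e-15). Among the small classes, Tbx3 had higher means in chromaffin-like (75.3 CPM) and mesonephric-like cells (31.7 CPM). Msx1 and Msx2 had the opposite direction in this comparison (2.58 ± 0.21 and 2.18 ± 0.23). Of the 9 targets, 2 were higher and 5 lower in pre-granulosa-like than in stromal-like cells. The shares of all genes were 24.5% and 23.7%, and the listed targets did not move one way.

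Of the 4 SMAD genes that carry or share the signal (Smad1, Smad4, Smad5 and Smad9), 3 were lower and 1 higher in germ-like cells in each of the 3 comparisons with somatic classes. Of all genes, 36.8% to 38.1% were lower and 33.0% to 35.9% higher in these comparisons. Smad4, the shared partner, was 66.9 ± 4.3 CPM in germ-like cells and 98.2 to 123 CPM in the somatic large classes, and Smad5 was 30.3 CPM against 45.6 to 97.4 CPM. The one that was higher was Smad9, at 4.49 CPM against 0.70 CPM in pre-granulosa-like cells (log2 2.58 ± 0.34, adjusted p = 1.5e-07).

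The listed inhibitors were higher in stroma. Of the 12 tested and reported here, 10 were lower and 1 higher in pre-granulosa-like than in stromal-like cells, and 8 were higher and 0 lower in stromal-like than in epithelial-like cells. Of all genes, 23.7% were lower and 24.5% higher in the first comparison, and 15.6% were higher and 14.2% lower in the second. Pmepa1, which limits SMAD signalling, was 191, 177 and 185 CPM in stromal-like cells and 5.14, 5.14 and 5.16 CPM in pre-granulosa-like cells (log2 -5.05 ± 0.19, adjusted p = 3.8e-18). The extracellular antagonist genes Nbl1 (53.8 against 11.2 CPM), Bmper (8.50 against 0.85 CPM) and Sostdc1 (7.77 against 0.13 CPM) had the same direction with log2 differences of -2.16 to -5.67. Fstl1, a secreted BMP-binding protein gene, was 261 CPM in stromal-like, 99.0 CPM in pre-granulosa-like and 28.8 CPM in germ-like cells, and Bambi, a pseudoreceptor gene, 148, 78.2 and 22.6 CPM. The 1 that went the other way was Fst, which encodes follistatin, a binder of activin and of BMPs. Fst stood at 745, 869 and 786 CPM in pre-granulosa-like cells and at a mean of 75.7 CPM in stromal-like cells (log2 3.51 ± 0.29, adjusted p = 2.9e-11). Pre-granulosa-like cells thus held the highest levels of Bmp2 and of Fst among the large classes, but the 2 genes led different clusters. Bmp2 was among the leading genes of cluster 0 (216 CPM), and Fst among those of clusters 1 and 3, where Bmp2 was 94.9 and 130 CPM. In germ-like cells, Chrd (chordin) was higher at 3.67 CPM against 0.71 CPM in pre-granulosa-like cells (2.27 ± 0.29, adjusted p = 1.1e-07).

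Among the 8 other receptors and co-receptors, Acvr1 (a type I receptor) was 23.0 ± 0.6 CPM in stromal-like and 4.93 ± 0.56 CPM in pre-granulosa-like cells (log2 -2.11 ± 0.14, adjusted p = 5.7e-13). Rgma, a co-receptor gene, was 13.1 CPM in germ-like, 8.78 CPM in stromal-like and 1.41 CPM in pre-granulosa-like cells. Bmpr1b was lower in germ-like than in pre-granulosa-like cells (-2.003 ± 0.32, adjusted p = 3e-06). Eng (endoglin) and Acvrl1, receptors of the endothelium, were 237 ± 95 and 44.4 ± 18.3 CPM in endothelial-like cells, 6.27 ± 0.19 and 3.31 ± 0.22 above the mean of the 3 somatic classes on the log2 scale. Eng was also found at 10.2 ± 3.1 CPM in germ-like cells, against 1.11 ± 0.38 CPM in pre-granulosa-like cells. Of the 12 other ligands listed, only Bmp5 and Gdf6 passed the filter on low counts. Bmp5 was 6.98 ± 0.97 CPM in pre-granulosa-like, 8.26 ± 1.24 CPM in stromal-like and 1.79 ± 0.56 CPM in epithelial-like cells, and Gdf6 was 4.17 ± 0.41 CPM in stromal-like and 0.41 ± 0.09 CPM in pre-granulosa-like cells.

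Endothelial-like cells were set against the mean of the 3 large somatic classes. Of the 10 genes 1 was higher (Bmpr2) and 4 lower (Bmp7, Bmpr1a, Id1 and Id2), where 19.8% of all genes were higher and 21.7% lower. Bmpr2 was 91.0, 49.1 and 80.0 CPM (log2 0.91 ± 0.16, adjusted p = 2.7e-05), while Bmpr1a was 3.66-fold lower (-1.87 ± 0.14, adjusted p = 1.1e-11), so that the type I and type II receptor genes parted. The difference of Id3 did not pass (547, 376 and 597 CPM; -0.08 ± 0.22, adjusted p = 0.81), and Id2 was 2.46-fold lower (-1.30 ± 0.29, adjusted p = 7e-04). Id1 was 1.99-fold lower (-0.99 ± 0.39, adjusted p = 0.044), but not without lot 26 (adjusted p = 0.063) or lot 29 (adjusted p = 0.17), with cells holding Y-linked UMIs removed (0.074), with DESeq2 size factors (0.054) or with DESeq2 (0.12). Bmp2 did not pass (-0.55 ± 0.25, adjusted p = 0.084), but was called lower with the lot as a block (adjusted p = 0.0042), with no low-count filter (adjusted p = 0.044) and without lot 30 (-0.95, adjusted p = 0.0077).

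Set beside each other over cell types, the ligand and response levels did not share 1 order. Over the 9 classes with at least 10 cells in every lot, Spearman's rho of Bmp2 was 0.40 with Id1, 0.23 with Id2 and with Id3, -0.08 with Smad6 and -0.23 with Smad7. For Bmp4 the values were 0.92, 0.82, 0.83, 0.70 and 0.28, and for Bmp7 0.60, 0.55, 0.63, 0.27 and 0.77. These are descriptions over 9 class means that share their lots. The UMIs of Bmp4 per lot were few in several small classes. They numbered 0 to 3 in red-blood-cell-like, 0 to 8 in Sertoli-like, 0 to 23 in macrophage-like and 2 to 16 in mesonephric-like cells. The red-blood-cell-like class, in which most UMIs are haemoglobin, was lowest or next to lowest for all 10 genes except Bmp2, and macrophage-like and Sertoli-like cells were low for several. Within the 11 clusters of the 3 large somatic classes, rho of Bmp2 was 0.30 with Id1, -0.85 with Id2, -0.56 with Id3, -0.65 with Smad6 and -0.21 with Smad7. For Bmp4, rho was 0.53, 0.36, 0.86, 0.50 and 0.05 with the same genes. For Bmp7 it was 0.255, -0.91, -0.48, -0.76 and -0.05, so that the values with Id2, Id3, Smad6 and Smad7, positive over classes, were negative over clusters. The clusters with a mean of 30 CPM or more of Bmp4 (1, 3, 9, 10 and 12) had Id3 at 602 to 832 CPM, and the others at 399.8 to 562 CPM. Cluster 3 passed the cut by its mean over lots (36.8 CPM), but lot 30, with 2340 of its 2460 cells, had 25.6 CPM. This cut was not fixed in advance, so the split is a description of the same values. Unnamed cluster 11, led by Pax8 and Aldh1a3 (939 cells), had Bmp4 at 31.7 CPM, Id1 at 736 CPM and Id3 at 1037 CPM, the highest Id3 level of all clusters. RNA levels do not show where the ligand protein acted, and cells had been dissociated, frozen and thawed before these levels were taken.

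**Figure D4:**
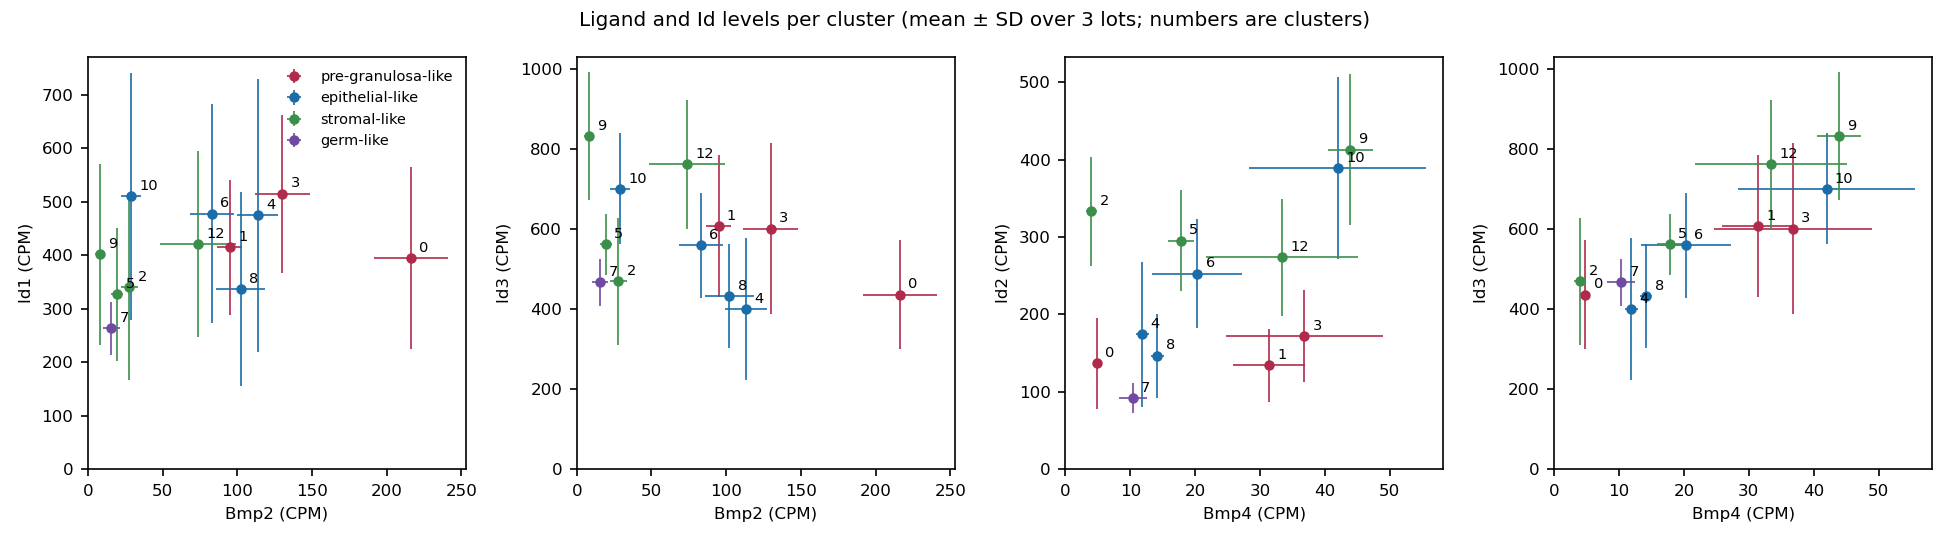
Mean ligand level (x, CPM) against mean Id level (y, CPM) of each cluster of the 4 large classes, with SDs over 3 lots as lines; both axes are linear from 0 and the numbers name the clusters. The highest Bmp2 cluster (0, at 216 CPM) is not high in Id3 (436 CPM), and clusters 9, 10 and 12 combine Bmp4 of 33.4 to 43.9 CPM with Id3 of 701 to 832 CPM.

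Id1, Id2 and Id3 were highest in lot 30 in all 9 classes, which held for 3.29% of the 1763 genes with at least 20 CPM in each class. In the 4 large classes, Bmp2, Id1, Id2, Id3 and Smad7 were all highest in lot 30, as were 11.7% of 4539 genes. The ratio of lot 30 to the mean of the other lots was 2.00 for Id1, 2.06 for Id2 and 1.76 for Id3 in pre-granulosa-like cells, and 1.31, 1.40 and 1.21 in germ-like cells. A list of 11 immediate early and heat shock genes had the same direction. Its sum was 4934, 5686 and 10830 CPM in pre-granulosa-like cells (ratio 2.04), and 935, 789 and 2256 CPM in germ-like cells (ratio 2.62). The part of the stress list in the Id levels was not tested, and lot and stress genes cannot be told apart with 1 library per lot. Without the pre-granulosa-like cluster that came mostly from lot 30, Id1 was still 296, 335 and 585 CPM in pre-granulosa-like cells and Bmp2 was 155, 169.6 and 226 CPM, while Bmp4 fell in lot 30 from 17.2 to 9.02 CPM.

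**Figure D5:**
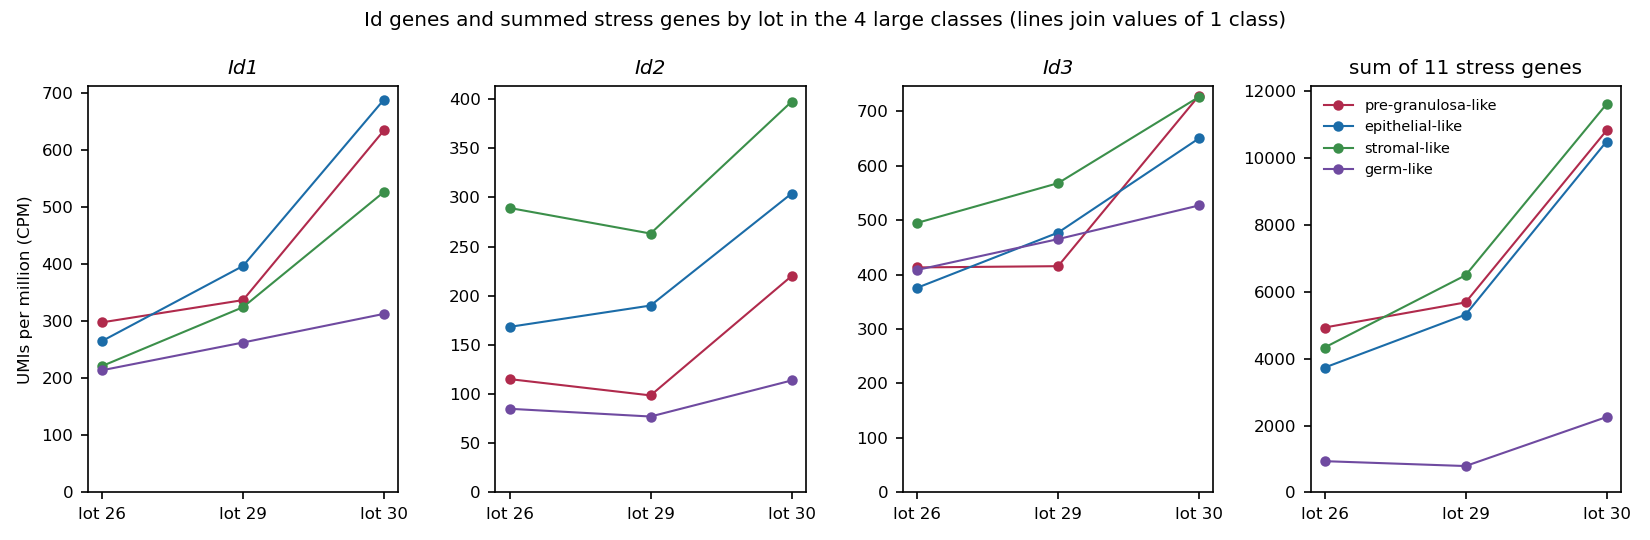
CPM (linear axis from 0) of Id1, Id2, Id3 and of the sum of 11 stress genes in lots 26, 29 and 30, with 1 line per large class; lines join values of 1 class and do not mean an order of the lots. Lot 30 is highest in every line, for example 634 against 298 and 337 CPM for Id1 in pre-granulosa-like cells.

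Among 9240 genes with at least 20 CPM in the mean of a class, those most like each of the 10 genes were found by Pearson's r of log2(CPM + 1) over the 27 sums of class and lot. For Bmp2 these were Rspo1 (r = 0.872), Gm17660 (0.868) and Olfm1 (0.855). For Id1 the first was Id3 (0.848), followed by Nkd1 (0.842). Bmp4 had the lowest best match (Rfx3, 0.785), and Smad7 the highest (Pgpep1, 0.950). For Bmpr1a it was Ift74 (0.945), for Bmpr2 Map2k6 (0.946), for Id2 Cacfd1 (0.931), for Id3 Cirbp (0.944), for Smad6 Hnrnph1 (0.907) and for Bmp7 Tmem53 (0.906). The low red-blood-cell-like sums enter all of these values.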

How the data were processed

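Per the labels and the study's methods, the authors selected barcodes with UMI-tools, mapped reads to GRCm38 with STAR 2.7, assigned uniquely mapped reads to genes with featureCounts 2.0.1, and deposited raw UMI counts per gene and cell, with no normalization. The annotation release and strand setting are not given in the sources used here.

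Cells with 200 to 9000 genes and no more than 10% of UMIs from mitochondrial genes were kept, as in the study. They were clustered with Seurat 5.3.0 (2000 variable genes, 50 principal components, resolution 0.8), with 59 BMP genes held out, of which 16 would have been variable. A cluster took the name of 1 of 11 marker lists if the list had the highest mean log2 excess (1 or more, and 0.25 above the next qualifying list), at least 3 raised markers, and 2 markers detected in 60% of the cells. Lists that led its top 10 genes against the name, or low UMIs with no own marker leading, left it unnamed. Scrublet, run through scanpy 1.11.5 (expected rate 8%), called 566, 347 and 635 doublets in lots 26, 29 and 30. They were kept, and removed in an alternative.

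UMIs were summed per class and lot for the 9 classes with at least 10 cells in every lot (27 sums, the smallest of 184947 UMIs) and tested with edgeR 4.0.16 in R 4.3.3 (TMM, filterByExpr, quasi-likelihood, Benjamini-Hochberg over 13286 genes, threshold 0.05). All 10 genes passed the low-count filter. The script was tested on simulated data. DESeq2 1.42.0 was an alternative. The sums of a lot share its pool of cells, so the lot pairs them. Between sums of the same lot, deviations from the class mean had a median correlation of 0.118 (108 pairs, of which 60 exceeded 0.1). The p-values measure the spread between these lots. Shares of cells were taken after thinning to 4000 UMIs, which left out 9 to 143 shallower cells in each large class.

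Pathway genes were named from fixed lists where they reached 50 CPM in a large class or changed by a log2 of 2 or more past the threshold. Genes that lead a cluster, and a few list members below these limits, were named after their values were seen. Of the listed inhibitors, 1 gene is not reported here and was left out of their counts. For each of the 10 genes the 3 most similar genes were sought. The 10 genes and all lists were chosen with earlier results of these data known. Gene positions are from GENCODE and promoter windows from RefSeq, both on GRCm38.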

Additional observations from a re-analysis of the deposited data

How the results depend on the processing

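Over 15 alternatives, 2 of which were added after seeing the data (the germ-like sub-cluster with somatic transcripts left out and the pre-granulosa-like cluster mostly of 1 lot left out), 0 of the called log2 fold changes changed direction, and 48 of the 70 values kept their side of the threshold throughout. The alternatives were clustering resolutions of 0.4 and 1.2, the BMP genes put back, doublets or cells with Y-linked UMIs removed, no filter on low counts, DESeq2 size factors within edgeR, DESeq2 itself, the lot as a block, a fit of the compared classes alone, and the omission of each lot. The 2 added alternatives were run only for the comparisons that include the class they change. Of 980 recomputed values, 27 lost and 24 gained a call. The count of the 10 genes called stayed within 1.5 times the main count in every comparison but 1: for pre-granulosa-like minus epithelial-like it was 5 and fell to 3 without lot 26 and to 3 without lot 30 (range over left-out lots 3 to 5). With the lot as a block (the pairing of sums of 1 lot), the counts were 7, 7, 6, 9, 7, 7 and 6 in the 7 comparisons, against 5, 6, 4, 8, 5, 6 and 5 without it; the block changed 10 calls, all of them gains and all given beside the results. The difference of Bmp2 between germ-like and stromal-like cells (log2 -0.94, adjusted p = 0.0031) was -0.31 (adjusted p = 0.34) at resolution 0.4, and the cause was not tested. Of 300 recomputed class levels, 11 moved by more than 1 SD over lots. Shares of cells with a UMI depend on depth, and 79 of 80 moved by more than 1 SD without thinning or with thinning to 2000 UMIs. The planned comparison of germ-like clusters with and without Stra8 was not run, since every germ-like cluster and sub-cluster had Stra8 UMIs in more than 50% of its cells. Sums of the small classes hold few UMIs of these genes (0 to 27 for Smad6), and intervals there would cover counting error only.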

Other observations

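The clusters that kept no name were also read for the 10 genes, with no comparison made. Cluster 15 (388 cells), led by the steroidogenic genes Cyp11a1, Insl3 and Hsd3b1, had Bmp2 at 31.6 CPM, Id1 at 284 CPM and Smad7 at 94.9 CPM. Clusters 13 and 17, with medians of 2766 and 2583 UMIs per cell, had Bmp2 at 294 and 92.1 CPM. Their Bmpr2 (209 and 227 CPM) and Smad7 (261 and 218 CPM) lay above the mean of every named class, with Id3 at 274 and 224 CPM, below that of each large class. The 77 mesonephric-like cells had the highest mean of Id1 (545 ± 364 CPM), Id2 (482 ± 161 CPM) and Id3 (850 ± 231 CPM) among the named classes, from 83 to 549 UMIs per gene and lot. The 42 chromaffin-like cells, which had fewer than 10 cells in a lot, had 0 UMIs of Bmp4, and their Id1 mean was 452 CPM.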
